A study of Mus musculus with 8 samples.

Results

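The data described here are the 4 RNA-seq libraries taken at 4 hr and at 24 hr of the serum-to-2i transition, out of 8 libraries in the series, and they ask what changed in gene expression across the first day in 2i. They were chosen by their labelled time point, with 2 libraries at each time, and all 4 were run on lane 8 of the sequencer, as the names of the deposited tables show. E14 cells are a mouse embryonic stem cell (ESC) line of strain 129/Ola, grown without feeders in medium with fetal calf serum and the cytokine LIF. At time 0 the serum medium was washed away and replaced by 2i, which is serum-free NDiff 227 medium with LIF, the MEK inhibitor PD0325901 and the GSK3 inhibitor CHIR99021 (1 mM and 3 mM in the labels, with the unit given as µM in the study's methods). At each time 1 library was made from cells in 2i alone (2i) and 1 from cells in 2i with 17 µM of vitamin C (vitC). All 4 groups therefore share the line, the LIF, both inhibitors and the loss of serum, and no library of cells still in serum was analysed here. RNA was depleted of ribosomal RNA and sequenced as 50 bp single-end reads, and the values are raw counts of reads per gene.

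Mouse ESCs in serum and LIF are a mixed population in which the FGF4 that the cells secrete activates ERK, a kinase cascade that pushes them toward differentiation, while LIF acts through STAT3 to hold them back. PD0325901 blocks the kinase directly above ERK. CHIR99021 blocks GSK3 and so stabilizes beta-catenin, which relieves repression by TCF7L1, a brake on pluripotency genes. Cells in this medium are described as naive, or ground-state, ESCs. The switch also takes away everything serum supplies, including lipids bound to its proteins, growth factors, retinol carriers and the lysophospholipids that act on the actin cytoskeleton.

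The libraries held 17403697 counts (2i, 4 hr), 13157570 counts (vitC, 4 hr), 12940716 counts (2i, 24 hr) and 4753528 counts (vitC, 24 hr), so the vitC 24 hr library was the shallowest, and values from it carry the widest counting error. Levels are given as CPM (counts scaled to a common library total), with edgeR's TMM factors. A level of 5 CPM had a Wilson 95% confidence interval of 4.05 to 6.17 CPM in the 2i 4 hr library and of 3.34 to 7.49 CPM in the vitC 24 hr library. These intervals, and a floor of 3 counts (0.172 to 0.631 CPM of the unscaled totals), cover counting error only. In addition, 3 features (Lars2, Gm23935 and ENSMUSG00000093077) took 0.0277% and 0.0113% of the counts at 4 hr and 5.92% and 6.37% at 24 hr, which in these 4 libraries cannot be told apart from the time, whereas the 2i libraries at 16 and 32 hr, on lane 7, had 0.206% and 0.564%, and the vitC libraries at these times, on the same lane 7, 7.11% and 4.21%. The share on mitochondrial genes was 0.470% and 0.566% at 4 hr, and 0.554% (2i) and 1.50% (vitC) at 24 hr. All 8 markers fixed for ESCs were counted in every library, among them Pou5f1, Nanog and Esrrb, and their summed level was 1734 and 1695 CPM at 4 hr and 1724 and 1614 CPM at 24 hr. Markers of other cell types are given beside the results they touch.

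A gene was tested if 2 or more of the 4 libraries held it at 1 CPM or above. Of the 14303 such genes 2870 (20.1%) differed between 24 hr and 4 hr at an adjusted p-value under 0.05 (edgeR's quasi-likelihood test with treatment as a block, Benjamini-Hochberg). Of these, 1595 genes (11.2% of those tested) were higher at 24 hr and 1275 (8.91%) were lower. The change was at least 2-fold for 805 genes that rose and 393 that fell. Over all genes tested 74.8% moved in the same direction in 2i and with vitC. All 2870 called genes did so too, but the blocked model selects for genes on which the treatments agree, so that is no separate evidence. The model has 1 residual degree of freedom, which measures how far the treatments depart from a common change, and no condition was repeated in a separate culture. With offsets for GC content and exon length 2990 genes passed, but with 1279 higher and 1711 lower in place of 1595 and 1275, so the balance of rises and falls depends on this setting. DESeq2 called 1527 genes. In models on the other 7 libraries of the series 2565 genes passed without the 2i 4 hr library, 1485 without the 2i 24 hr library, 933 without the vitC 4 hr library and 752 without the vitC 24 hr library. Without the last of these, many of the 320 tested genes named by rule no longer passed, among them Pou5f1, Atf4, Polr1b, Klf5, Myc and Cdx2. None of the 320 that passed in either fit changed direction. In these whole populations, fewer cells of a type and less RNA per cell cannot be told apart.

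The 12 protein-coding genes that fell most, where genes averaging under 5 CPM were left out, included Etv4 and Dusp4. Both are in the list of FGF and ERK genes described further on, in which 3 of 18 fell and 4 rose. PD0325901 was present at both times. Etv4 (ENSMUSG00000017724), an ETS transcription factor induced by ERK, stood at 54.3 and 58.5 CPM at 4 hr in 2i and with vitC and at 1.87 and 0.647 CPM at 24 hr, a log2 fold change of -5.25 (SE 0.31, adjusted p = 3.15e-06, edgeR). Dusp4 (ENSMUSG00000031530), a phosphatase that switches off ERK, fell from 32.2 and 34.4 CPM to 4.21 and 1.51 CPM (log2 fold change -3.43, SE 0.34). The libraries of the 2 times were far apart for both genes. Alox15, a lipoxygenase, had 301 and 276 counts at 4 hr and 4 and 0 counts at 24 hr, where 0 counts allow up to 0.631 CPM of the library total. Pllp (plasmolipin) fell from 23.0 and 23.8 CPM to 1.40 and 0.431 CPM, and Enpp2, which makes the signalling lipid lysophosphatidic acid, from 10.7 and 12.6 CPM to 0.780 and 0.863 CPM. Apln, Tgm3, Enox1 and the de novo methylation cofactor Dnmt3l fell as well, with log2 fold changes between -3.74 (Dnmt3l) and -2.89 (Enox1). The muscle-type genes Acta1 (log2 fold change -3.14) and Myl9 (-3.29), and Utf1, an ESC chromatin factor that fell from 18.8 and 14.2 CPM to 2.11 and 1.73 CPM, completed the 12.

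The 12 largest rises, by the same rule, were mostly from low levels at 4 hr. Lars2, 1 of the 3 uneven features, was the extreme, at 35.3 and 29.1 CPM against 9292 and 20600 CPM. Thsd4 (ENSMUSG00000032289), which encodes a matrix protein, rose from 1.45 and 3.61 CPM to 39.1 and 34.7 CPM (log2 fold change 3.96, SE 0.34, adjusted p = 5.31e-05, edgeR). Zfp503, a zinc finger repressor, rose from 0.925 and 0.589 CPM to 11.0 and 14.7 CPM, and its relative Zfp703 from 2.31 and 1.03 CPM to 8.50 and 35.6 CPM. The growth factor binding protein gene Igfbp5 rose from 0.983 and 0.883 CPM to 7.48 and 18.6 CPM. Stra8 and Crabp2, both retinoic acid genes described further on, belonged to the same 12, as did Oprd1 (an opioid receptor, log2 fold change 3.58), Nrk (3.13), the homeobox gene Crxos (3.06), Zfp521 (3.02) and Fgfbp3 (3.02), which encodes a carrier of FGFs. For all 24 genes both 24 hr libraries lay on the same side of both 4 hr libraries. Only genes that passed and moved the same way in both treatments were eligible, so that is no separate evidence.

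**Figure D1:**
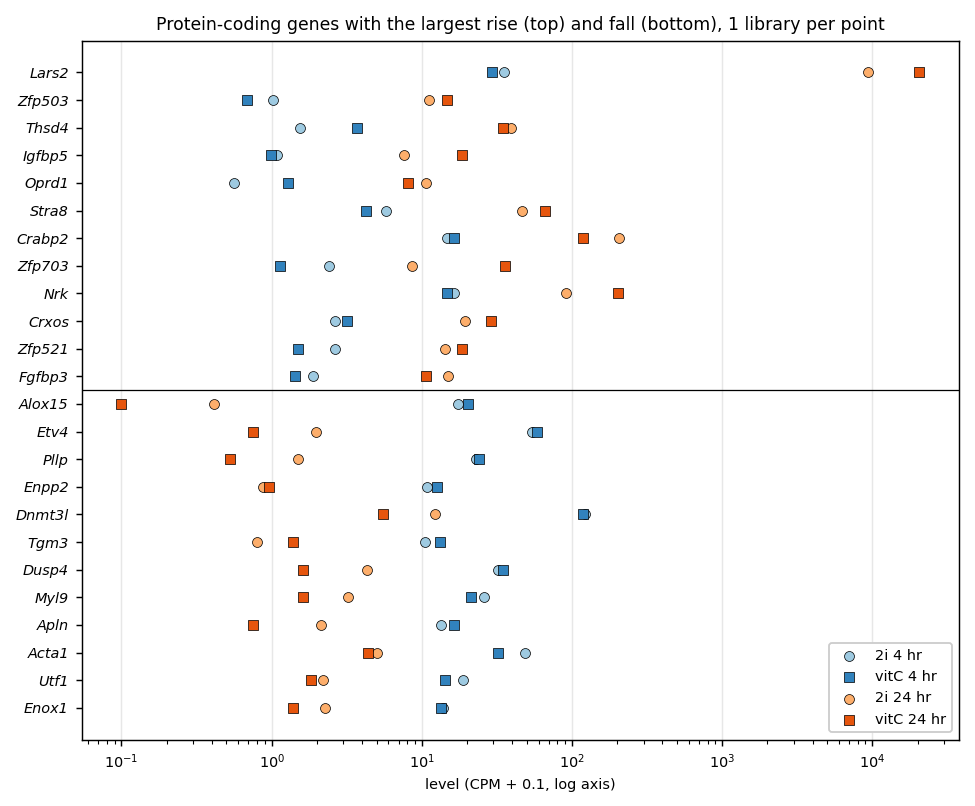
Level of 12 protein-coding genes that rose most (above the line) and 12 that fell most (below it), in CPM with 0.1 added on a log axis; each point is 1 library, circles are 2i and squares vitC, blue is 4 hr and orange 24 hr. In every row the blue and orange points do not overlap, as for Etv4, at 54.3 and 58.5 CPM at 4 hr and 1.87 and 0.647 CPM at 24 hr. The genes were chosen among those that passed and moved the same way in both treatments, which favours such a separation.

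To describe the rest of the genome, 64 lists of genes of known function were counted against the share of all genes called, 11.2% higher and 8.91% lower. In 33 lists more members rose than fell, in 25 more fell than rose, and in 6 the numbers were equal. Among lists with at least 10 tested, the largest shares of rising members were in cholesterol synthesis, fatty acid synthesis and the ATF4 response. Retinoic acid genes and Hox genes came next, but only 10 of 38 Hox genes passed the filter, which favoured members high at 24 hr. Falling shares in these lists were largest for SRF and YAP targets, trophectoderm genes (5 of 11), ribosome biogenesis, core pluripotency and the proteasome. The trophectoderm median was -0.25, but 0.37 without the vitC 24 hr library. Its falling members include the keratin genes Krt8, Krt18 and Krt19, which the epithelial list also holds. The median log2 fold change over all genes tested was 0.01. List medians had the same sign in 2i and with vitC in 54 of the 64 lists.

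**Figure D2:**
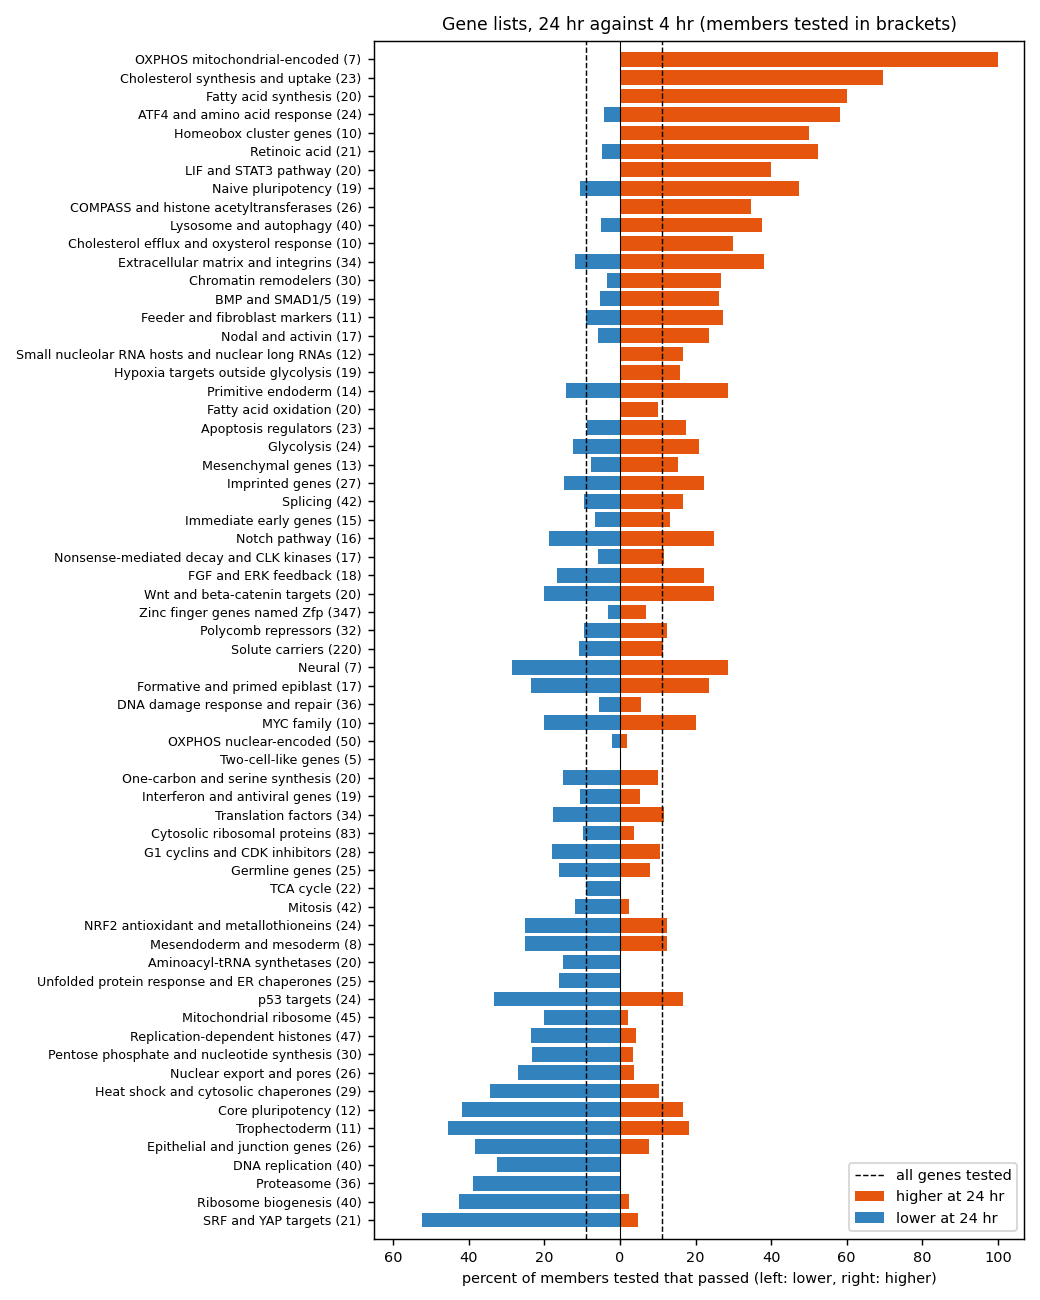
Share of the tested members of each gene list that passed the threshold, in percent, with members higher at 24 hr to the right and members lower to the left, and the number tested in brackets; dashed lines mark the shares over all genes tested, 11.2% and 8.91%. Lipid synthesis, ATF4 and retinoic acid genes stand at the top below the mitochondrial-encoded genes, and SRF and YAP targets, ribosome biogenesis, the proteasome and DNA replication at the bottom.

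Many genes of lipid synthesis rose. SREBP2 and SREBP1, the transcription factors encoded by Srebf2 and Srebf1, switch on sterol and fatty acid genes when membranes hold little sterol. Of 23 cholesterol genes tested, 16 were higher at 24 hr and none was lower (median log2 fold change 0.81). Srebf2 itself rose from 128 and 119 CPM to 256 and 325 CPM (log2 fold change 1.22, SE 0.15, adjusted p = 0.00067, edgeR). The largest change was in Dhcr7, an enzyme of the last steps to cholesterol, from 19.01 and 15.01 CPM to 49.1 and 79.6 CPM. Fdft1, Fdps, Cyp51, Nsdhl and Tm7sf2 rose by 1.06 to 1.26 on the log2 scale, and Insig1, the sterol sensor that holds SREBP back, by 0.91. In contrast Idi1 (0.16) and Hsd17b7 (-0.13) did not pass. Among genes of efflux and the oxysterol response, Npc2 (0.99), Lpcat3 (0.85) and Srebf1 (0.50) rose and the pumps Abca1 (-0.04) and Abcg1 (0.36) did not pass, and with offsets for GC content and length Srebf1 no longer passed (0.25). With the vitC 24 hr library left out 12 cholesterol genes passed, and in the 2i libraries at 16 and 32 hr, run on lane 7, the list's median difference from 4 hr was 0.96 and 0.87, beside 0.84 at 24 hr.

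Fatty acid synthesis showed the same direction, with 12 of 20 genes higher, none lower and a median log2 fold change of 0.91. Scd1, a desaturase that makes monounsaturated fatty acids, rose from 165 and 154 CPM to 777 and 1068 CPM (log2 fold change 2.51, SE 0.17, adjusted p = 8.6e-06, edgeR). Fads2 and Fads1, the desaturases for polyunsaturated fatty acids, rose from 24.9 and 23.8 CPM to 106 and 91.9 CPM and from 54.5 and 58.9 CPM to 173 and 201 CPM. Both 24 hr libraries stood well above both 4 hr libraries for all 3. Acss2 (1.50), Elovl6 (1.13), Scd2 (1.03), Fasn (0.91), the citrate carrier gene Slc25a1 (0.91) and Acly (0.72), which lead carbon from acetate and citrate into palmitate and longer chains, rose too, as did the lipogenic regulators Thrsp (2.78) and Mlxipl (1.51). Acaca (0.49), which makes malonyl-CoA, and Elovl5 (-0.01) did not pass. For the breakdown of fatty acids, 2 of 20 genes rose, Cpt2 (0.63) and Cpt1a (1.43), the gate for entry into mitochondria, which went from 39.0 and 38.6 CPM to 98.1 and 112 CPM. Leaving out the vitC 24 hr library gave 10 fatty acid synthesis genes higher.

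The promoters show which of these genes carry a recognition motif near their start. RefSeq promoter windows (GRCm38.p6, 250 bases before to 50 after the start) were searched on both strands. The SREBP motif TCACNCCAC was in 0 of 17 cholesterol promoters and in 1 of 17 fatty acid promoters, that of Mlxipl, against 1.44% of 27025 genes. The C/EBP-ATF motif TGATGNAAT was in 2 of 20 ATF4-list promoters (Nupr1 and Pycr1) against 1.08% of all genes, and in 0 of 17 of the one-carbon list. The E-box CACGTG was in 12 of 32 lysosome promoters (37.5%) and 8 of 35 ribosome biogenesis promoters (22.9%) against 8.09% of all genes, although with only the bases before the start the ribosome biogenesis share was 5.7% against 6.86%. The CArG box, the SRF site, was in 4 of 18 promoters of the SRF and YAP list and 3 of 15 of the immediate early genes, against 1.81%. TCF/LEF motifs (ATCAAAG or TTCAAAG) were in 3 of 13 Wnt promoters against 9.88%. AP-1 (TGANTCA), STAT (TTCCNGGAA) and ETS (CCGGAAGT) motifs were in none of the 15 immediate early, 17 LIF and 15 FGF promoters searched, and are in 8.97%, 1.35% and 4.31% of all genes. A match is a stretch of letters and not evidence of binding. Several genes with the motif of their list did not pass, among them Lamp1, Ctsd, Srf, Vcl and Sp5. The 250 bases before the start of 5 named genes whose promoter held the motif of their list are shown, since these genes passed the test in their list, with the motif (on either strand) in capitals.
Nupr1, chr7:126625471-126625720, minus strand, C/EBP-ATF motif: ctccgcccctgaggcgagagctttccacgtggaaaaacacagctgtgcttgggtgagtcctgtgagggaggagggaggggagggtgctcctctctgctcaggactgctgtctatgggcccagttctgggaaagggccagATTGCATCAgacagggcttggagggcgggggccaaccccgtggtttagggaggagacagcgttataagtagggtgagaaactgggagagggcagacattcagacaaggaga
Glb1, chr9:114400828-114401077, plus strand, E-box: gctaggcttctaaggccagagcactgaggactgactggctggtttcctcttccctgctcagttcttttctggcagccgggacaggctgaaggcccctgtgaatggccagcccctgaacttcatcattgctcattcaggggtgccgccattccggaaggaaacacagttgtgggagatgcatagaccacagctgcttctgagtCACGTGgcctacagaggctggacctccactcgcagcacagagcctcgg
Myl9, chr2:156775214-156775463, plus strand, CArG box: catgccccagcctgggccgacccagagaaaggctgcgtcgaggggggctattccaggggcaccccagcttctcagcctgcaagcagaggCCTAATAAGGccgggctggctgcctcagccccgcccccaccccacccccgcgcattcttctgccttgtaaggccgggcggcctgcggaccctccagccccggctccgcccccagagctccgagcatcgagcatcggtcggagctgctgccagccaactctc
Zfp36, chr7:28379229-28379478, minus strand, CArG box: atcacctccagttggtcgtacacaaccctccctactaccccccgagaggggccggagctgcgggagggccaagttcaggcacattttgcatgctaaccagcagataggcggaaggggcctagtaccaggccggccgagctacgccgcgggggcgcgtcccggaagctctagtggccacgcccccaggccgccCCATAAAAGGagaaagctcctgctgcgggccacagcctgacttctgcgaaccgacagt
T, chr17:8434173-8434422, plus strand, TCF/LEF motif: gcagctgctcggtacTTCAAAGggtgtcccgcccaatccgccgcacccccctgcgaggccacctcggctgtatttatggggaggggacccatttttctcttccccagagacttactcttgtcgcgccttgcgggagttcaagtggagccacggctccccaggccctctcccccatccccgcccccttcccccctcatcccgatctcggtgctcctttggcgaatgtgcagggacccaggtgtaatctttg

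The response to amino acid shortage, which the transcription factor ATF4 drives, rose in part. Of 24 genes tested 14 were higher at 24 hr, and the arginine and lysine transporter gene Slc7a3 was the only 1 lower (median log2 fold change 0.60). Atf4 rose from 297 and 307 CPM to 482 and 478 CPM (log2 fold change 0.67, SE 0.14, adjusted p = 0.0071, edgeR). Nupr1, a stress cofactor whose promoter is printed above, rose from 6.24 and 3.83 CPM to 28.3 and 19.4 CPM, and Chac1, which degrades glutathione, from 2.66 and 9.27 CPM to 21.4 and 19.4 CPM. The 4 hr libraries differed from each other for Chac1 but both lay below both 24 hr libraries. Asparagine synthetase (Asns, 0.50), the proline enzymes Pycr1 (1.10) and Aldh18a1 (0.52), the amino acid transporters Slc7a1 (1.09), Slc1a5 (1.17) and Slc6a9 (1.31), Trib3 (0.91), Stc2 (1.72) and Vldlr (2.10) rose. Ddit3 (CHOP, -0.10), Sesn2 (0.07) and Slc7a11 (0.27) did not pass. Serine and one-carbon genes, several of which are ATF4 targets elsewhere, did not follow: 2 of 20 rose (Mthfd2 and Bhmt) and 3 fell (Mat2a, Gcsh and Cth), and Phgdh, the first enzyme of serine synthesis, was at -0.43 and did not pass. In the fit that lacked the vitC 24 hr library 7 of the ATF4 genes were higher and 1 lower.

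More chaperone genes fell than rose. Of 25 genes of the unfolded protein response 4 fell and none rose, with Hspa5 (BiP), the main chaperone of the endoplasmic reticulum, at 1313 and 954 CPM at 4 hr and 653 and 594 CPM at 24 hr (log2 fold change -0.85, SE 0.15, adjusted p = 0.0033, edgeR). Manf (-0.63), Derl1 (-0.50) and Calr (-0.47) fell too, whereas the sensors Ern1 (0.62), Atf6 (0.00) and Eif2ak3 (-0.10) did not pass. Of 29 cytosolic chaperones 10 fell and 3 rose. The inducible Hspa1b fell from 26.9 and 15.3 CPM to 6.70 and 4.96 CPM and its near-identical copy Hspa1a from 9.77 and 5.52 CPM to 1.72 and 1.51 CPM. Reads of that pair may be split between them, so their separate values are uncertain. Hspa8 (-0.64), Dnajb1 (-0.63) and subunits of the TRiC chaperonin (Cct3, Cct6a and Cct8) fell, and Bag3 (1.69), Hspa4l (0.79) and Hsp90ab1 (0.61) rose. Leaving out 1 library at a time gave 3 to 6 cytosolic chaperones lower and 1 to 3 higher, and 1 to 3 genes of the unfolded protein response lower, both counts of falls being lowest without the vitC 24 hr library.

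Protein breakdown was split between its machines. Of 36 proteasome genes 14 fell and none rose (median log2 fold change -0.37). Psmb8 and Psmb10, catalytic subunits of the immunoproteasome, showed the largest falls, from 19.8 and 14.4 CPM to 3.90 and 2.37 CPM and from 39.2 and 36.3 CPM to 11.1 and 9.92 CPM. Psmd14, the deubiquitinase of the proteasome lid, fell from 252 and 241 CPM to 138 and 117 CPM (log2 fold change -0.95, SE 0.14, adjusted p = 0.0016, edgeR). The other 11 fell by between 0.43 (Psmd2) and 1.00 (Psma5) on the log2 scale. Of 40 lysosome and autophagy genes 15 rose and 2 fell (median 0.42). Glb1, lysosomal beta-galactosidase, rose from 19.6 and 25.0 CPM to 66.0 and 58.7 CPM, and Hexa, Neu1, Ctsa, Ctsb, Ctsc and Psap, enzymes and a cofactor of glycolipid and protein digestion, rose by 0.48 to 0.83. Among the MiT regulators of lysosomal genes, Mitf rose (1.35) and Tfeb fell (-0.76), and Tfe3 (0.34) did not pass, nor did Tfeb after thinning all libraries to the smallest total. The selective autophagy receptor gene Sqstm1 fell slightly (-0.42), and Map1lc3b (0.12), Becn1 (-0.10) and Lamp1 (0.14) did not pass. Without the vitC 24 hr library 4 proteasome genes were lower and 5 lysosome genes higher.

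**Figure D3:**
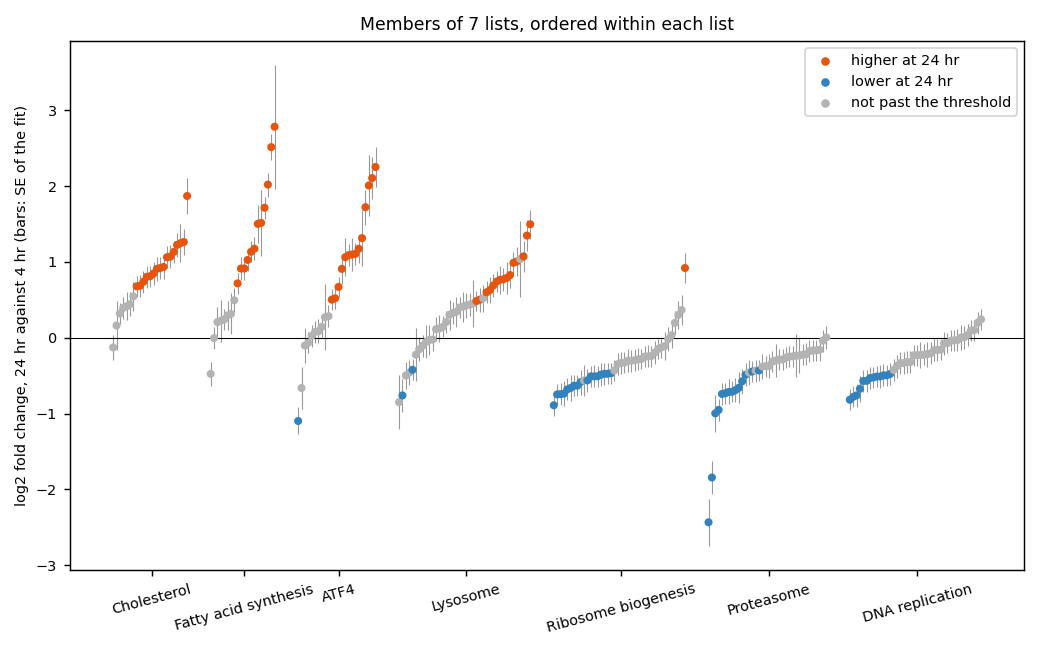
Fitted log2 fold change (24 hr against 4 hr) of each tested member of 7 lists, ordered within its list, with the standard error of the fit as a bar; orange is higher at 24 hr, blue lower, and grey did not pass. No cholesterol or fatty acid synthesis member is blue, and no proteasome or DNA replication member is orange.

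More genes of ribosome production fell than rose. Of 40 nucleolar and RNA polymerase I genes 17 fell and 1 rose (median log2 fold change -0.34), and against 4 hr the 2i libraries of 16 and 32 hr had a median difference of -0.55 and -0.52, beside -0.36 at 24 hr. Polr1b, a core subunit of RNA polymerase I, fell from 146 and 155 CPM to 78.4 and 83.7 CPM (log2 fold change -0.89, SE 0.14, adjusted p = 0.0024, edgeR). Its loading factor gene Rrn3 (-0.66), and the assembly factors Rrp9 (-0.75), Nip7 (-0.74), Nop16 (-0.74), Bop1 (-0.68) and Heatr1 (-0.63) fell too. The exception was Fbl, the methyltransferase fibrillarin, from 26.6 and 14.9 CPM to 46.5 and 30.8 CPM, and it did not pass in the model on all 8 libraries (adjusted p = 0.20, edgeR). Ncl (0.36) and Npm1 (-0.30) did not pass. Among translation factors 4 rose and 6 of 34 fell, with Eif6, which keeps ribosomal subunits apart, the largest, at 262 and 274 CPM against 120 and 88.2 CPM. Of 83 ribosomal protein genes 3 rose and 8 fell (3.61% and 9.64%), which is below the share of all genes for rises and near it for falls, and reads of families with many pseudogenes such as this may be split between copies, so single values are uncertain. Mitochondrial ribosomal proteins had 9 falls and 1 rise among 45, and nuclear pore and transport genes 7 falls and 1 rise among 26, Ran (-0.67) and Xpo1 (-0.49) among them. When the vitC 24 hr library was left out 2 of the 40 ribosome biogenesis genes were lower, and in that model no mitochondrial ribosome or nuclear pore gene was lower.

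Some genes for copying DNA fell, and most genes of replication and of cell division did not pass. Of 40 replication genes 13 fell and none rose (median log2 fold change -0.23). Orc2 of the origin complex fell from 288 and 305 CPM to 166 and 170 CPM (log2 fold change -0.82, SE 0.14, adjusted p = 0.0029, edgeR) and the flap nuclease gene Fen1 from 303 and 263 CPM to 182 and 148 CPM. Mcm5 (-0.52) and Mcm7 (-0.48) of the helicase fell, and Mcm2, Mcm3, Mcm4 and Mcm6 (-0.04 to -0.23) and Pcna (-0.42) did not pass. In nucleotide synthesis 7 of 30 fell, with Atic, Gart, Adsl and Ppat of the purine pathway and Umps of the pyrimidine pathway among them (-0.50 to -0.87), and Pgd of the pentose phosphate pathway rose (1.00). Of 42 mitosis genes (median -0.17) 5 fell, including Cdc20 (-0.94) and Bub3 (-0.89), and Mki67 rose (0.67). With offsets for GC content and length 10 mitosis genes fell and none rose, Mki67 not passing (0.45). Among G1 regulators Ccnd1 fell from 273 and 294 CPM to 117 and 81.5 CPM, and Ccnd2 rose from 21.3 and 23.8 CPM to 48.1 and 43.8 CPM. The CDK inhibitor gene Cdkn1a rose from 44.7 and 36.1 CPM to 87.1 and 153 CPM, while Ccne1 (-0.51), Ccne2 (-0.86) and the phosphatase gene Cdc25a (-0.72) fell. Leaving out the vitC 24 hr library gave a count in which 2 replication genes and 3 nucleotide genes were lower. Of 36 DNA damage and repair genes 2 rose and 2 fell.

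Cdkn1a is also a target of p53, and of 24 genes in the p53 list 8 fell and 4 rose, against 4 and 1 without the vitC 4 hr library and 2 and 1 without the vitC 24 hr library. Perp, a membrane effector of p53, fell from 267 and 268 CPM to 118 and 82.6 CPM (log2 fold change -1.43, SE 0.16, adjusted p = 0.00032, edgeR), and Mdm2 (-0.57), Ccng1 (-0.47) and Aen (-0.56) fell. Trp53 itself (0.92) and Gadd45a (0.99) rose. Among apoptosis regulators 4 of 23 rose (Bcl2l2, Bmf, Casp9 and Xiap, by 0.56 to 0.68) and Birc5 (-0.57) and Bok (-1.59) fell. Bmf and Casp9 did not pass with offsets for GC content and length, nor Bcl2l2 and Bmf after thinning all libraries to the smallest total. DESeq2 called none of the 23 higher and 2 lower. The list's median was 0.05, and -0.04 without the vitC 24 hr library. In the NRF2 antioxidant list 6 of 24 genes fell and 3 rose, and 5 fell and none rose in the fits without the vitC 4 hr or the vitC 24 hr library. Hmox1, which degrades haem, fell from 295 and 282 CPM to 92.9 and 85.6 CPM (log2 fold change -1.69), and Nqo1 (-1.07) and the glutathione synthesis genes Gclc (-0.85) and Gclm (-0.99) fell, whereas catalase (Cat, 0.90) and Nfe2l2, which encodes NRF2 (0.64), rose.

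Many targets of the actin and serum-responsive factors SRF and YAP fell: 11 of 21 were lower and 1, Cnn3 (0.47), was higher (median log2 fold change -0.52). Tagln, an actin-binding protein and classical SRF target, fell from 274 and 190 CPM to 49.0 and 44.4 CPM (log2 fold change -2.30, SE 0.16, adjusted p = 1.18e-05, edgeR). Myl9, whose promoter with its CArG box is printed above, fell from 25.8 and 21.1 CPM to 3.12 and 1.51 CPM. Cnn2 fell from 293 and 269 CPM to 105 and 93.8 CPM, and Ccn1 (Cyr61), a YAP target, from 102 and 139 CPM to 36.9 and 38.0 CPM. Cnn1 (-2.12), Acta2 (-2.12), Ccn2 (-0.80), Tpm1 (-0.69) and Tpm2 (-0.62) fell as well, while Vcl (-0.40), Flna (-0.43) and Ankrd1 (0.11) did not pass. At 4 hr these cells had already left serum, so the immediate early genes that serum induces within minutes were compared after that loss. Of 15 tested, Zfp36 (1.56) and Jund (0.45) rose and Atf3 (-0.96) fell, shares (13.3% and 6.67%) near those of all genes. Fos, Jun, Junb and Srf did not pass, nor did Jund in the model on all 8 libraries. Without the vitC 24 hr library 6 SRF and YAP targets were lower.

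Adhesion genes changed in their makeup. Of 26 epithelial and junction genes 10 fell and 2 rose (median log2 fold change -0.43). The simple-epithelium keratins Krt8 and Krt18 fell from 736 and 530 CPM to 408 and 288 CPM and from 756 and 499 CPM to 364 and 305 CPM, and Cldn6, Esrp1, Epcam and Krt19 fell (-0.66 to -1.39). Desmoglein 2 (Dsg2), a desmosomal cadherin, rose from 35.7 and 33.9 CPM to 114 and 199 CPM (log2 fold change 2.11, SE 0.20, adjusted p = 0.00011, edgeR), and E-cadherin (Cdh1, 0.24) did not pass. In the extracellular matrix list 13 of 34 rose and 4 fell. Fibronectin (Fn1) rose from 201 and 212 CPM to 516 and 985 CPM, and the basement membrane genes Lama5 (1.19), Lamc1 (0.99), Nid2 (0.88), Hspg2 (1.22) and Agrn (0.76) rose. Among integrins Itga3 (-1.41), Itga8 (-1.13) and Itga9 (-1.60) fell and Itga6 (0.45) and Itga7 (1.31) rose. Col1a1 and Col1a2, which fibroblasts also express, rose from 50.4 and 47.0 CPM to 153 and 421 CPM and from 49.4 and 38.9 CPM to 196 and 235 CPM. The summed level of the 8 fibroblast markers was 122 and 105 CPM at 4 hr and 380 and 698 CPM at 24 hr, with these genes and Postn the only 3 of the 8 that passed, Col3a1 at 4.20 to 6.90 CPM, Dcn at 1.32 to 2.26 CPM and Lum at 0 to 0.431 CPM. The part of fibroblasts in these rises was not tested. With the vitC 24 hr library left out 4 epithelial genes were lower and 1 higher, and 8 matrix genes were higher and 3 lower.

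Many retinoic acid genes rose. Retinoic acid, made from retinol by RDH and ALDH1A enzymes, binds RAR and RXR receptors, and CRABP proteins carry it inside the cell. Of 21 genes 11 were higher and 1 lower (median log2 fold change 0.95). Crabp2 rose from 14.6 and 16.3 CPM to 207 and 119 CPM (log2 fold change 3.36, SE 0.22, adjusted p = 7.1e-06, edgeR), Crabp1 from 11.5 and 7.87 CPM to 49.5 and 37.7 CPM, and Stra8, a retinoic acid target and gatekeeper of meiosis, from 5.66 and 4.12 CPM to 46.7 and 65.8 CPM. The retinol transporter gene Stra6 (2.84), the cofactor gene Meis1 (1.34) and the receptor genes Rarb (2.58) and Rara (0.95) rose while Rarg (-0.43) and Rxra (-0.04) did not pass. Of the enzymes Aldh1a2 rose (1.60) and Rdh10, which makes retinal, fell from 92.3 and 82.9 CPM to 42.1 and 29.3 CPM. The degrading enzyme genes Cyp26a1 (1.09) and Cyp26b1 (0.93) did not pass. Of 38 homeobox cluster genes 28 did not reach the filter, and of the 10 tested 5 rose and none fell. Hoxb2 rose from 3.41 and 2.87 CPM to 12.2 and 14.5 CPM, and Hoxb1, Hoxa2 and Hoxc12 to at most 4.96 CPM. The 38 summed to 19.5 and 19.6 CPM at 4 hr. The filter therefore favoured members high at 24 hr and left little room for falls. DESeq2 called 2 higher, and with a filter of 5 CPM only 2 were tested, both higher. Hoxc12 had 0 and 1 counts at 4 hr, at which no fold change can be read. The lists of retinoic acid genes and homeobox genes share members, Hoxb1 among them. Hotairm1, an antisense RNA of the Hoxa cluster, rose from 1.27 and 1.47 CPM to 7.64 and 5.61 CPM, with strand not stated for the counting. Without the vitC 24 hr library 7 retinoic acid genes were higher and 1 lower.

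**Figure D4:**
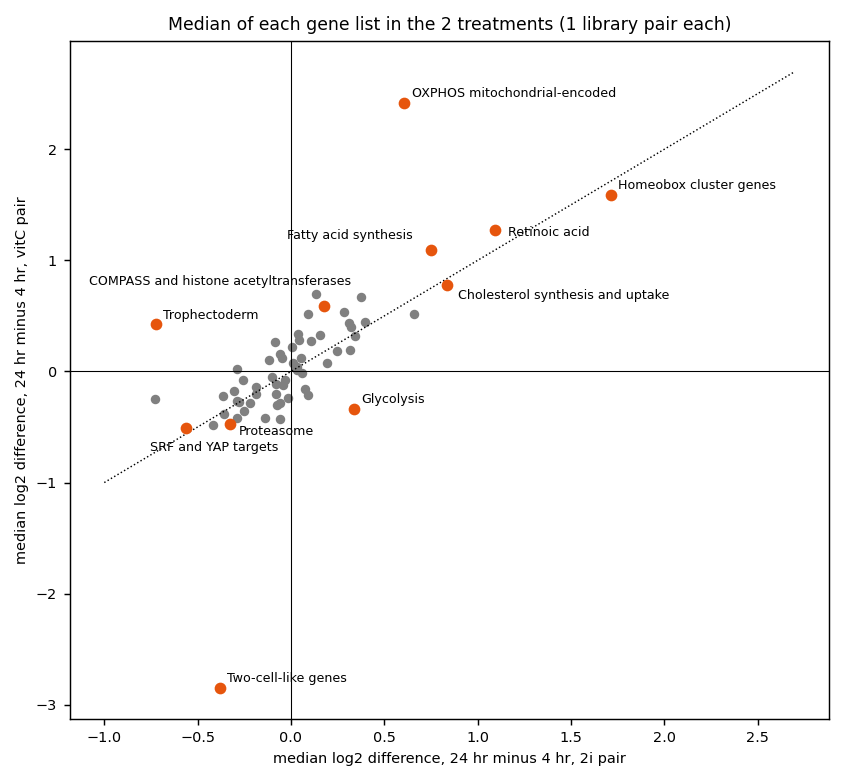
Median log2 difference between 24 hr and 4 hr of each gene list in the 2i pair (horizontal axis) and the vitC pair (vertical axis), 1 pair of libraries each; the dotted line marks equal medians, and 11 lists are named in orange. Retinoic acid, Hox and lipid lists lie near the line, mitochondrial-encoded genes far above it (0.61 and 2.42), and the two-cell-like list (5 genes tested, none past the threshold) at -0.38 and -2.85.

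Pluripotency genes moved in both directions. Of 19 naive genes 9 rose and 2 fell (median log2 fold change 0.54). Tfcp2l1, a STAT3 target that holds cells naive, rose from 333 and 393 CPM to 658 and 899 CPM (log2 fold change 1.09, SE 0.14, adjusted p = 0.00077, edgeR). Klf5 rose from 6.59 and 7.51 CPM to 14.2 and 50.7 CPM, Esrrb by 0.61, Klf2 by 0.91 and Dppa3 by 1.43, and Nanog stood at 392 and 431 CPM against 424 and 423 CPM (0.04, not past the threshold). Nr0b1 fell from 72.2 and 74.8 CPM to 37.8 and 18.8 CPM. Among core factors Sox2 rose from 144 and 118 CPM to 262 and 276 CPM, and its partner Pou5f1 fell from 501 and 458 CPM to 325 and 282 CPM. Lin28a (-0.90) and Trim28 (-0.86) fell, and of all 12 core genes 5 fell and 2 rose (median -0.19). DESeq2 called 4 lower and 2 higher. With 1 library left out the median lay between -0.38 and -0.09. Of 17 formative and primed epiblast genes 4 rose and 4 fell. Dnmt3b (-2.06), Pim2 (-1.85) and Cldn6 (-1.39) fell, Sox4 (1.17) rose, and the regulator gene Otx2 was at 2.20 and 3.02 CPM against 1.33 and 0.431 CPM and did not pass. Of 20 LIF pathway genes 8 rose, among them the receptor Lifr (0.56), Jak2 (0.70), Socs3 (0.48), Pim1 (1.18) and Bcl3 (1.99), and none fell. Stat3 (0.13) did not pass, nor did Lifr with offsets for GC content and length. The naive and LIF lists share Klf4, Tfcp2l1 and Gbx2. Without the vitC 24 hr library 3 naive genes were higher and 1 lower, and 3 LIF genes were higher.

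The pathways under the inhibitors held genes that rose and genes that fell. Of 18 FGF and ERK genes 3 fell (Etv4, Dusp4 and Dusp5) and 4 rose (Spry2, Il17rd, Etv6 and Fgfr1), while with offsets for GC content and length 4 fell and 1 rose. None of the rises held without the vitC 4 hr library (2 lower) or the vitC 24 hr library (3 lower). The ERK-induced Etv5 (-0.25), Spry1 (-0.47) and Dusp6 (-0.58) did not pass. At 4 hr the inhibitor had already acted for hours, and no library before it was analysed here. Of 20 Wnt targets 5 rose and 4 fell, and Tcf7l1, the repressor that beta-catenin counters, was among the higher (2.13). Cdx1 rose from 5.84 and 3.02 CPM to 32.2 and 24.6 CPM (log2 fold change 2.71, SE 0.27, adjusted p = 0.00014, edgeR), and Tcf7 (1.29) and Axin2 (0.66) rose, although Axin2 went from 48.8 to 56.2 CPM in 2i and from 50.5 to 110 CPM with vitC, and did not pass with offsets for GC content and length. Cdx2, Ascl2 and T, whose promoter is printed above, fell (-1.88, -1.32 and -1.10), and Lef1 (0.22), Sp5 (-0.43) and Nkd1 (-0.17) did not pass. In the BMP list Id1 fell from 52.6 and 45.5 CPM to 14.5 and 16.6 CPM, and Id3 (0.75), Smad7 (1.51) and Bmp7 (1.30) rose. In the Nodal list the ligand gene Nodal fell from 162 and 174 CPM to 112 and 57.8 CPM, while its target Lefty1 (0.67) rose. Myc rose from 2.60 and 1.03 CPM to 6.70 and 12.3 CPM, and Mycn fell (-0.64). Of 10 MYC family genes 2 rose and 2 fell. With DESeq2, or without the treatment term, 1 of the 10 rose and none fell, so Mycn did not pass. Notch genes were split as 4 higher and 3 lower of 16, but as 2 and 3 with offsets for GC content and length and as 1 and 2 with DESeq2.

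Among genes of other lineages, 5 of 11 trophectoderm genes fell and 2 rose (median -0.25). The keratin genes Krt8, Krt18 and Krt19, already counted among the epithelial genes that fell, are members of the trophectoderm list. That list depends on the setting: without the vitC 24 hr library 1 fell and 1 rose with a median of 0.37, and the median was also above 0 with no filter on low counts, with all 8 libraries, after thinning and without either 2i library. The mesodermal gene T fell from 17.9 and 14.9 CPM to 7.41 and 7.98 CPM, and the trophectoderm regulator Cdx2 from 8.84 and 10.8 CPM to 3.12 and 1.94 CPM. The summed mesoderm markers were at 22.0 and 18.6 CPM against 11.6 and 12.1 CPM, and Mesp1 and Mixl1 were under 1 CPM in all 4 libraries. For primitive endoderm the sums were 12.8 and 10.2 CPM against 18.9 and 33.4 CPM, with Dab2 (1.26) the only 1 of the 6 markers that passed, and Gata4, Gata6 and Sox7 each under 3 CPM in every library. In the wider list of 14 primitive endoderm genes 4 rose (Dab2, Lamc1, Nid1 and Lama1) and 2 fell (Amn, with 22 and 17 counts at 4 hr and 0 and 1 at 24 hr, and Cubn, with 44 and 35 against 2 and 5). Lama1 did not pass with offsets for GC content and length, and without the vitC 24 hr library 1 rose and none fell. Of 7 neural genes tested 2 rose (Cxcl12, 0.83, and Ncam1, 0.65), 2 fell and the median was 0.25, but with offsets for GC content and length neither rise passed. Tubb3 fell from 172 and 147 CPM to 62.2 and 44.0 CPM (log2 fold change -1.60, SE 0.15, adjusted p = 0.00011, edgeR), Nes by 0.67, and Pax6 was under 1 CPM throughout. Of 25 germline genes 2 rose (Stra8 and Dmrt1) and 4 fell, with Tex19.1, a guard against transposons, from 122 and 133 CPM to 52.0 and 49.4 CPM. Of 27 imprinted genes 6 rose and 4 fell, but with offsets for GC content and length 4 rose and 5 fell. Igf2 rose from 80.1 and 66.4 CPM to 184 and 366 CPM and Peg10 from 516 and 606 CPM to 731 and 1654 CPM. Mest fell from 92.3 and 94.9 CPM to 39.7 and 54.6 CPM.

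In energy metabolism nuclear and mitochondrial genes differed. Of 50 nuclear genes of oxidative phosphorylation 1 rose (Uqcrq, 0.86) and 1 fell (Atp5h, -0.49), below the shares of all genes. Of 22 TCA cycle genes none rose and 2 fell (Sdhd and Pcx, 9.09%), near the share of all genes for falls. Atp5h and Sdhd did not pass with offsets for GC content and length. All 7 mitochondrial-encoded genes tested were higher at 24 hr, and 6 others in the list did not reach the filter. Their median difference was 0.61 in 2i and 2.42 with vitC, and mt-Cytb went from 179 to 273 CPM in 2i and from 199 to 1183 CPM with vitC. DESeq2 called none of the 7, and neither did edgeR without the vitC 4 hr or without the vitC 24 hr library, of which the latter's share of mitochondrial counts was the highest of the 4 (1.50%). In glycolysis Hk1 rose from 31.3 and 29.5 CPM to 77.4 and 103 CPM, 4 others of 24 rose (Aldoc, Pfkp, Ldhb and Hk2), and Slc2a1 (-0.54), Pdk1 (-1.25) and the lactate exporter gene Slc16a3 (-1.48) fell, Slc2a1 not in the model on all 8 libraries. Slc16a3 stood at 245 and 214 CPM at 4 hr and at 156 (2i) and 39.2 (vitC) CPM at 24 hr. With offsets for GC content and length 3 glycolysis genes were higher and 5 lower. The list's median was -0.08, and it was -0.33 without the 2i 4 hr library and -0.23 without the 2i 24 hr library. It was 0.25 without the vitC 4 hr library and 0.22 without the vitC 24 hr library. Of 19 other hypoxia targets 3 rose, with Vegfa at 32.2 and 19.8 CPM against 83.1 and 71.2 CPM, and none fell. Of 220 solute carriers 25 rose and 24 fell, shares (11.4% and 10.9%) near those of all genes.

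Among genes that act on chromatin, 9 of 26 COMPASS and histone acetyltransferase genes were higher and none lower (median log2 fold change 0.45), among them Kat6b from 94.7 and 84.8 CPM to 200 and 237 CPM (log2 fold change 1.28, SE 0.15, adjusted p = 0.00049, edgeR), Kdm6b (1.67), Ncoa6 (1.38), Kmt2d (1.26), Crebbp (0.88) and Ep300 (0.64). Of 30 chromatin remodelers 8 rose, with Chd3 from 58.3 and 39.8 CPM to 148 and 153 CPM and Arid1a from 43.2 and 51.2 CPM to 59.5 and 176 CPM, and 1 fell (Actl6a). For Arid1a, Kmt2d, Crebbp and Ep300 the rise was larger in the vitC pair, a difference that 4 libraries cannot test, and the COMPASS list's median difference was 0.18 in 2i and 0.59 with vitC. These are long genes, and with offsets for GC content and length 5 COMPASS genes were higher and 1 lower, and 4 remodelers were higher and 3 lower. Without the vitC 24 hr library, or without the vitC 4 hr library, 1 COMPASS gene and 2 remodelers were higher. Polycomb genes were split as 4 higher and 3 lower of 32 (12.5% and 9.38%), near the shares of all genes. Ezh2 (0.61) and Phc2 (1.21) were among the higher, and with the offsets 3 Polycomb genes were higher and 5 lower. Of 47 replication-dependent histone genes 11 fell and 2 rose, and the risers were both linker histones (Hist1h1e, 0.94, and Hist1h1c, 0.63). Their median was -0.27 here and 0.28 and 0.29 in the 2i libraries at 16 and 32 hr, and that of the 24 hr 2i pair was -0.14. Of 42 splicing genes 7 rose and 4 fell, and 8 and 10 with the offsets.

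Gene classes were then compared by length, base content and type. Among protein-coding nuclear genes split into 4 equal groups by merged exon length, 245 of 3185 rose and 435 fell in the shortest group, and 621 rose and 160 fell in the longest. The median log2 fold change went from -0.12 to 0.18 over the groups, and the difference was -0.08 and 0.12 in the 2i pair and -0.17 and 0.23 in the vitC pair. By GC content the shares moved less, from 271 higher and 262 lower in the group with the lowest GC to 423 and 332 in the highest. Proteasome, ribosomal and mitochondrial ribosome genes are mostly short and matrix and chromatin genes mostly long, so list counts were repeated with offsets for both. Then 16 proteasome, 22 ribosome biogenesis and 17 replication genes were lower. Of cholesterol genes 18 were higher, and of matrix genes 9 were higher and 5 lower. Ribosomal protein genes had 6 rises and 8 falls, and mitochondrial ribosome genes 1 rise and 11 falls. Over all 13947 genes tested with the offsets 1279 were higher and 1711 lower. Without offsets these were 1595 and 1275 of 14303, so calls over all genes shifted toward falls as well. Of 290 long noncoding RNAs tested 19 rose and 8 fell (6.55% and 2.76%), below the shares of all genes. The nuclear RNA Neat1 was at 125 and 127 CPM against 299 and 218 CPM. Of 1086 snRNAs only 7 passed the filter, which favoured members high at 24 hr, and 4 of these 7 rose. Their median difference from 4 hr in 2i was 1.85 at 24 hr, and 1.60 and -0.31 at 16 and 32 hr on lane 7. Of 113 snoRNAs and scaRNAs 8 rose and 2 fell (7.08% and 1.77%), below the shares of all genes. Precursors of the miR-302 cluster fell, Mir302d from 5.14 and 5.22 CPM to 1.09 and 1.08 CPM and Mir302a from 5.20 and 3.75 CPM to 1.56 and 1.08 CPM. Such short features are poorly sampled by this library type. Gm15564, an antisense RNA, went from 0.347 and 0.883 CPM to 379 and 733 CPM and Gm24245 from 0.116 and 0 CPM to 26.0 and 65.1 CPM. Both were picked out after their values were seen.

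**Figure D5:**
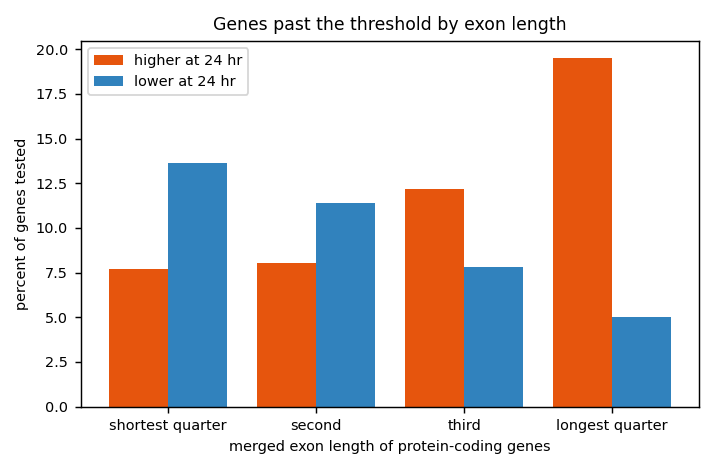
Percent of protein-coding nuclear genes tested that were higher (orange) or lower (blue) at 24 hr, in 4 groups of rising merged exon length with 3185 genes each. The share higher goes from 7.69% in the shortest group to 19.5% in the longest, and the share lower from 13.7% to 5.02%.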

How the data were processed

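Total RNA of 8 samples was depleted of ribosomal RNA and sequenced as single-end 50 bp reads on 2 lanes. The authors deposited raw read counts per Ensembl gene, 1 table per library. The submitters' processing notes name GSNAP, HTSeq, NCBIM37 and mm9, and the strand setting is not given in the sources used here. Of 37263 identifiers 32604 were named through GENCODE M21 (GRCm38), which also gave exon length and GC content, and 27 of the written gene symbols were not matched and are not analysed here. The 4 hr and 24 hr libraries (lane 8) were fitted with edgeR 4.0.16 in R 4.3.3 by the quasi-likelihood test with treatment and time as terms, TMM scaling, at least 1 CPM in at least 2 libraries and a Benjamini-Hochberg adjusted p under 0.05. The other libraries entered only alternatives. Each condition is 1 library with no replicate culture, so p-values measure only how far the treatments depart from a common change (1 residual degree of freedom, prior 10.5), and exact permutation of 2 against 2 libraries cannot reach 0.05. Total counts ran from 4753528 to 17403697, and intervals are Wilson 95% intervals for counting error only. Named genes included the 12 largest rises and 12 largest falls in protein-coding genes averaging 5 CPM or more. These had to pass and to move the same way in both treatments. Also named were the first 2 members of each list, up to 4 that passed with the largest change, and other members for their role. Members, lists and rules were chosen with earlier results of these data known. The ribosomal protein list, made by a name pattern, was trimmed of kinases and a binding protein after values were seen. Alternatives were other scalings, filters, DESeq2 1.42.0, no treatment term, all 8 libraries, leaving out libraries or the 3 uneven features, GC and length offsets, and thinning. Some members of the lists are counted but not reported here by name.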

Additional observations from a re-analysis of the deposited data

Results flagged for a closer look

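In 3 gene sets the median log2 difference between 24 hr and 4 hr had opposite signs in the 2i pair and the vitC pair, each at least 0.2 from 0. Each pair is 1 library against 1, so the difference between treatments was not tested. The median over trophectoderm genes was -0.72 in 2i and 0.42 with vitC, over glycolysis genes 0.34 and -0.34, and over snoRNAs and scaRNAs 0.44 and -0.28. By the same rule 6 named genes stood apart, none of which passed the test of the common change. Dazl, an RNA-binding protein of germ cells, differed by -0.22 in 2i and 1.66 with vitC. Gata2, a haematopoietic and trophoblast regulator, differed by -0.24 and 1.52, and Lef1, a Wnt effector and target, by -0.49 and 0.92. Fos, an immediate early gene, differed by -1.0 and 0.39 at a level under 5 CPM in all 4 libraries. The chaperone gene Hsp90b1 differed by -0.42 and 0.22. Smarca2, an ATPase of the BAF remodeler, was the only 1 of the 6 that was higher in 2i (0.72) and lower with vitC (-0.26). The vitC 24 hr library is the shallowest of the 4 and has the highest mitochondrial share (1.50%), and the part of this in these differences was not tested.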

How the results depend on the processing

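Of the 2870 genes called (1595 higher, 1275 lower), DESeq2 called 1527 (890 and 637), all among the 2870, and without the treatment term 1907 passed (1060 and 847), with 1906 among them. Leaving out 1 library at a time, in models on the other 7 libraries, gave 752 to 2565 genes (506 to 1477 higher, 246 to 1088 lower), the lowest without the vitC 24 hr library, which shared 729 genes with the 2870. Such models assume that the lone library left at a time and treatment varies like the others. Counts with other scalings, filters, all 8 libraries, the 3 uneven features removed, thinning, and offsets for GC content and length stayed within 1.5 times, from 2673 to 3505, but the offsets turned the split (42.8% higher in place of 55.6%). Of the 320 named genes, none that passed in the main fit or in an alternative changed direction between the 2. Genes that passed in neither were not checked for direction. Calls were lost for 60 with DESeq2, 49 without the treatment term, 22 with the offsets, 8 after thinning and 6 with all 8 libraries, and for 32 to 128 when 1 library was left out. Over the leave-outs, higher cholesterol genes numbered 12 to 15, fatty acid synthesis genes 9 to 11 and retinoic acid genes 7 to 11, and lower SRF and YAP targets 6 to 8, but lower proteasome genes 4 to 13, ribosome biogenesis genes 2 to 10 and replication genes 2 to 10, and higher COMPASS genes 1 to 10. The cause of these changes was not tested. The model with treatment as a block compares each 24 hr library with the 4 hr library of its treatment, and the labels give no replicate numbers for another pairing. At 5 CPM or less in the vitC 24 hr library, counting error limits what can be seen.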
